A study of Mus musculus with 8 samples.

Results

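Promoter-flanking peaks are the differential ATAC-seq peaks of E10.5 mouse hearts whose nearest transcription start site (TSS) of a protein-coding gene lay more than 1 kb and at most 3 kb away. Of the 15736 peaks in the deposited lists, 951 met this rule, measured from the edge of the peak to any annotated TSS of a protein-coding gene (GENCODE M21, mm10). The rule uses position only, so the list a peak came from and its score were free to vary among the members. ATAC-seq reads open chromatin through the transposase Tn5, which inserts adapters where DNA is accessible. The 8 samples were whole hearts at E10.5 (embryonic day), pooled within each sample and dissociated, with 4 wild-type (WT) littermate samples and 4 *Chd4-CMko* samples. In *Chd4-CMko* embryos both *Chd4* alleles are floxed and Cre is driven from *Tnnt2*, a cardiomyocyte gene, so that *Chd4* is deleted in cardiomyocytes. No treatment is named for either genotype, and the descriptions of the study differ on how many hearts made up a pool. The cells were not sorted, so other cell types of the heart, in which *Chd4* was not targeted, were in every sample. A change in the number of cells of a type and a change in accessibility per cell cannot be told apart in these data.

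The files held 2 lists, peaks with more signal in *Chd4-CMko* hearts (called gained here) and peaks with more signal in WT hearts (called lost). Values per sample are not in the lists. Replicate error and a test between genotypes could therefore not be had. The files also give no read depth, and the depth stated in the methods of the study was not used here. Intervals below are 95% intervals over peaks (Wilson for a share, Newcombe for a difference of shares, normal for a difference of means). Such an interval reflects the number of peaks alone and treats neighbouring peaks as if they were independent. The number beside a peak is the score deposited by the authors, which ranks peaks within a list and whose scale is not stated.

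CHD4 is the remodelling ATPase of NuRD, a complex that joins nucleosome remodelling with histone deacetylation and is best known for repression. In the heart it is brought to DNA by transcription factors that include GATA4, NKX2-5 and TBX5. The zone just beyond a promoter holds the shoulders of CpG islands, alternative first exons and proximal enhancers. Such elements are read by factors that bind GC-rich promoter DNA, such as the KLF and SP families, and by factors that act with cell type enhancers, such as MEF2 in muscle. NFY is a trimeric factor that binds the CCAAT box of many promoters.

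The following 6 members are shown because each holds a motif described below. They are peaks at genes named by the rule given with the processing. All are of the usual peak width of the lists, in mm10 coordinates, printed 5′ to 3′ on the plus strand of the genome, with the motif in capitals. The *Ckm* peak (chr7:19409859-19410009, gained, MEF2) lay 1016 bp upstream of a TSS of *Ckm*, the muscle creatine kinase. The *Ryr1* peak (chr7:29044411-29044561, gained, NFY) was in an intron of the calcium release channel of skeletal muscle. The *Lhx6* peak (chr2:36091479-36091629, gained, KLF/SP) had the highest score among gained members. The *Junb* peak (chr8:84980057-84980207, gained, CArG box) was intergenic, next to a gene for an AP-1 subunit. The *Bcas3* peak (chr11:85804189-85804339, gained, GATA) and the *Hpn* peak (chr7:31097722-31097872, lost, CTCF) belong to genes with members in both lists.
Ckm: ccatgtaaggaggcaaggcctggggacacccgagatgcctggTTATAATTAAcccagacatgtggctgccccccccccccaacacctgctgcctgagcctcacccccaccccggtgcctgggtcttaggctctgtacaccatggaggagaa
Ryr1: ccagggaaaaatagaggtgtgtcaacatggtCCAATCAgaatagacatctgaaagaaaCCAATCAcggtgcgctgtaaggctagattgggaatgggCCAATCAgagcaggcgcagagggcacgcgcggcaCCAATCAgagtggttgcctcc
Lhx6: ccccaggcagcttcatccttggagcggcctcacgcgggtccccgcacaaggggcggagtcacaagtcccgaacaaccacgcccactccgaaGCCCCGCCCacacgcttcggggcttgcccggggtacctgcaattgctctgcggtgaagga
Junb: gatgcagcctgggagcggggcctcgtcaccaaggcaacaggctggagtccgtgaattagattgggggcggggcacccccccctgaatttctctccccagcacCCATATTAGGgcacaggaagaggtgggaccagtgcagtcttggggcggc
Bcas3: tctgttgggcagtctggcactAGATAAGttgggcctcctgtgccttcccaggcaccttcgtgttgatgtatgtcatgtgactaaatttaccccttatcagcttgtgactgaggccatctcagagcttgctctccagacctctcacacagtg
Hpn: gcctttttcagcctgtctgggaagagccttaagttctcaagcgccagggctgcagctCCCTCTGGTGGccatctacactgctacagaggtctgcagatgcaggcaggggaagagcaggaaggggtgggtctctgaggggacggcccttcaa

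Flanking peaks were mostly gained, less often than peaks at start sites and more often than peaks farther away. Of the 951 members, 809 were gained and 142 lost, a gained share of 85.1% (82.7 to 87.2), beside 82.6% over all 15736 listed peaks. Within 1 kb of a TSS the share was 94.02% (2186 of 2325 peaks), and beyond 3 kb it was 80.2% (9996 of 12460). The flanking share was thus lower than that of start-site peaks, by -8.95 percentage points (-11.5 to -6.59), and 4.84 points above that of distal peaks (2.34 to 7.08). The same order held on most autosomes: flanking peaks were below start-site peaks on 17 of 19 and above distal peaks on 17 of 19. On each of the 19 autosomes gained members outnumbered lost members, with gained shares from 66.7% to 96.4%. Counted the other way, flanking peaks made up 6.23% of the gained list and 5.17% of the lost list, a difference of 1.05 points (0.0748 to 1.93). Sequence at this distance from a TSS covers 5.56% of the sequenced genome, between the values of the lists.

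**Figure D1:**
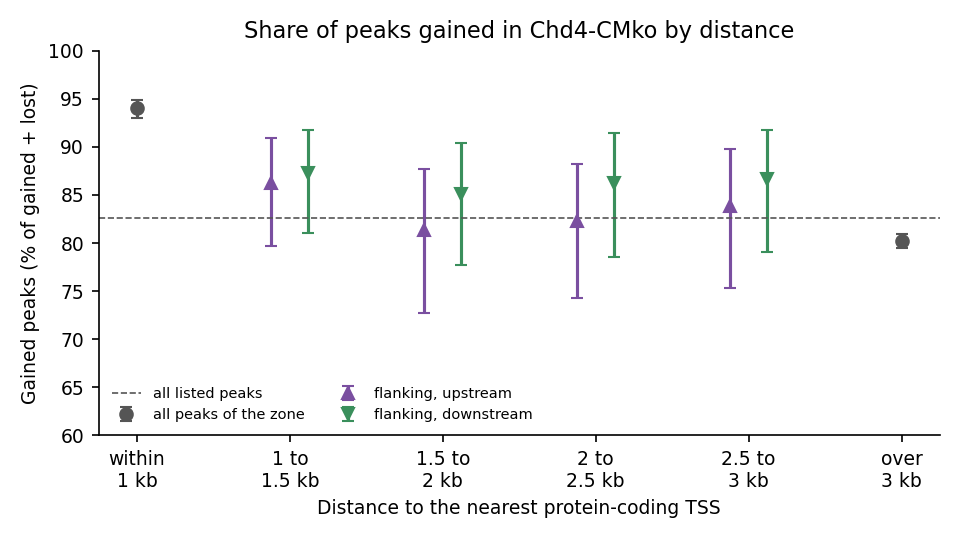
Gained peaks as a percentage of gained and lost peaks by distance to the nearest protein-coding TSS, with Wilson 95% intervals; triangles are flanking peaks in 500-bp bins on the upstream and downstream side, and the dashed line marks all listed peaks (82.6%). The 8 flanking points sit between 81.4% and 87.3%, below the start-site value of 94.02% and above the distal value of 80.2%.

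Within the zone the gained share was flat. It was 86.8% from 1 to 1.5 kb, 83.4% from 1.5 to 2 kb, 84.2% from 2 to 2.5 kb and 85.3% from 2.5 to 3 kb, with intervals that overlapped throughout. Just inside 1 kb the gained list held a peak at *Cyp1a1* (999 bp, score 85) and just outside it one at *Farp1* (1003 bp, 108.5). At 3 kb the nearest gained peaks were at *Sema4d* (2998 bp, 56.5) and *Cdk14* (3002 bp, 26.5). In the lost list the corresponding peaks were at *Pcsk1* (974 bp, 42.7) and *Tdo2* (1013 bp, 29.3), and at *Zcchc7* (2985 bp, 22.3) and *Bcat1* (3023 bp, 38.6).

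Counted from any annotated TSS, both sides were used about equally. Among gained members, 384 were upstream (47.5%, 44.1 to 50.9) and 425 downstream, close to the 48.8% of genome tiles in the zone (windows of the width of a peak) that are upstream. Among lost members, 75 were upstream (52.8%, 44.6 to 60.8) and 67 downstream. The upstream share of gained minus lost members was -5.35 points, with an interval from -14.1 to 3.52 that includes 0. Among peaks at or above the median score of their own list it was -12.05 points (-22.8 to -0.753). Gained members were densest next to the promoter: 256 of them (31.6%) lay between 1 and 1.5 kb, where 27.4% of the tiles lie, against 180 (22.3%) between 2.5 and 3 kb, where 22.8% lie. Lost members fell from 39 to 31 across the same bins.

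**Figure D2:**
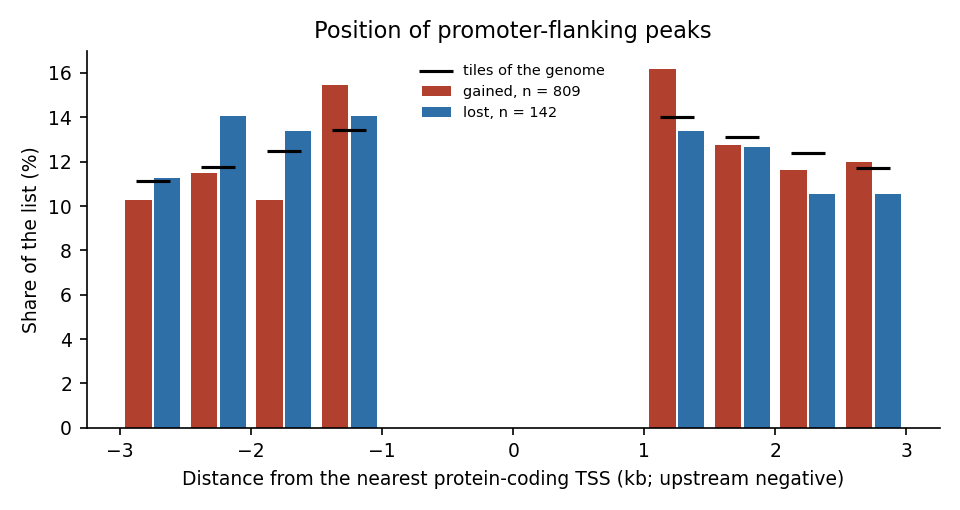
Share of the gained (n = 809) and lost (n = 142) flanking peaks in each 500-bp bin of distance from the nearest TSS, upstream negative; black dashes give the share of genome tiles in the same bin. Gained peaks exceed the tiles in the innermost bin on each side (15.5% upstream and 16.2% downstream).

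Upstream did not mean outside the gene. Of the 384 upstream gained members, 240 (62.5%) lay inside the body of the gene whose TSS was nearest, because that TSS was an internal, alternative one. The value was 53 of 75 (70.7%) for lost members. Downstream, 92.0% of gained and 91.0% of lost members were inside the gene. Measured from the outermost 5′ end of each gene alone, 403 gained and 42 lost peaks met the same limits, and none of the upstream ones was inside its gene. The gained share was then 90.6%. Upstream were 155 gained (38.5%) and 22 lost peaks (52.4%), a difference of -13.9 points (-28.9 to 1.52).

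By annotation most members were intronic. Introns of coding genes held 521 gained (64.4%) and 99 lost members (69.7%), and 121 gained and 20 lost members were intergenic. Coding exons held 78 gained members (9.64%) and 5 lost members (3.52%), a difference of 6.12 points (1.296 to 9.12). The 3′ UTR class had 38 gained members, 30 of them downstream of the TSS, and 3 lost members. A start of a noncoding gene lay within 1 kb of 46 gained and 9 lost members, so for these the coding TSS was not the closest start of any kind. A coding gene on the opposite strand also had a TSS within 3 kb of 18 gained and 3 lost members.

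Gained members were richer in GC than lost members, and more so the nearer the zone was to the TSS. Mean GC content was 57.96% ± 7.65 (SD over 809 peaks) for gained and 51.1% ± 5.43 (SD over 142 peaks) for lost members, against 44.0% ± 8.51 for the tiles of the zone. The lists differed by 6.83 points (5.79 to 7.86). In the gained list GC content stepped down with distance from the TSS. Flanking minus start-site peaks (mean 66.7%) was -8.78 points (-9.45 to -8.11), and flanking minus distal peaks (mean 54.3%) was 3.63 points (3.09 to 4.17). In the lost list the 3 zones had means of 52.4%, 51.1% and 50.3%, and neither difference from the flanking zone had an interval that excluded 0. The gained share of members changed steeply with GC content: 104 of 160 members with 40 to 50% GC were gained (65.0%), 410 of 486 with 50 to 60% (84.4%), 227 of 232 with 60 to 70% (97.8%). All 62 members with 70 to 80% and all 4 with 80 to 90% were gained.

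**Figure D3:**
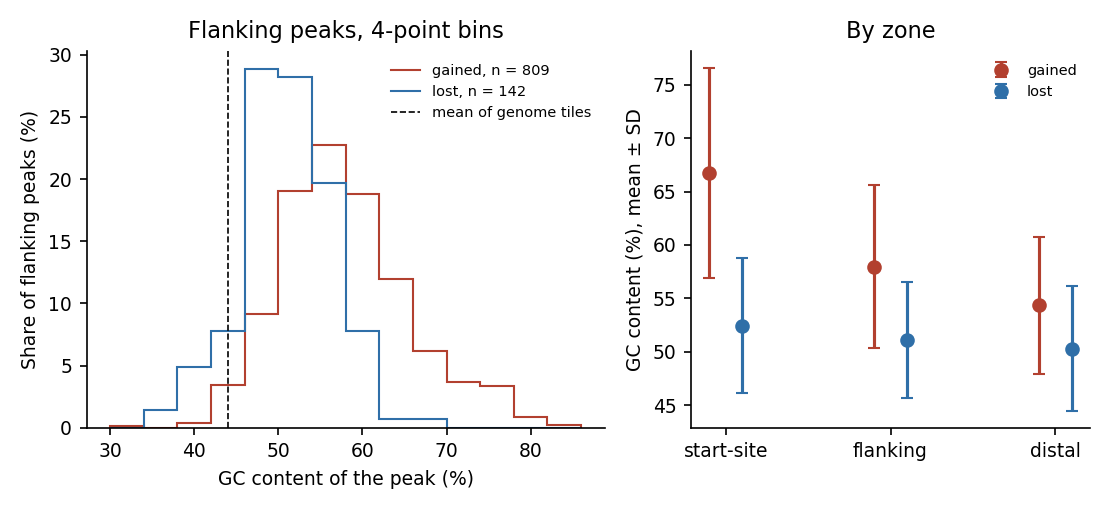
Left, GC content of gained and lost flanking peaks as a share of each list in bins of 4 points, with the mean of genome tiles dashed; right, mean and SD of GC content over peaks for each zone and list. Gained means step down from 66.7% to 57.96% to 54.3% with distance, whereas lost means stay between 50.3% and 52.4%.

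CpG dinucleotides followed the same pattern. Gained members had 2.72 ± 3.05 CpG per 100 bp and lost members 1.40 ± 1.18 (SD over peaks), a difference of 1.32 (1.03 to 1.60). Start-site gained peaks had 7.20 and the tiles of the zone 1.01. The downstream side was the richer one among gained members, by 0.807 CpG per 100 bp (0.398 to 1.22) and by 1.67 points of GC content (0.631 to 2.71). The richest bin was 1 to 1.5 kb downstream, with 60.9% GC and 4.07 CpG per 100 bp, and the farthest downstream bin had 56.5% and 2.24. For lost members the side difference in CpG included 0 (-0.577 to 0.202), and they held fewer CpG than lost start-site peaks (-0.459 per 100 bp, -0.804 to -0.114). Repeats covered 13.3% of the bases of gained and 10.51% of those of lost members, below the 27.5% of the tiles.

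Scores of gained members lay between those of the other zones. The median was 80 for gained members (range 21.5 to 469), 144.5 for gained start-site peaks and 54.5 for gained distal peaks. Lost members had a median of 41.2 (14.8 to 348.6), close to lost start-site (41) and lost distal peaks (36.4). Within the gained members the median was 74 upstream and 83.5 downstream. Scores of the lists are not compared with each other.

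**Figure D4:**
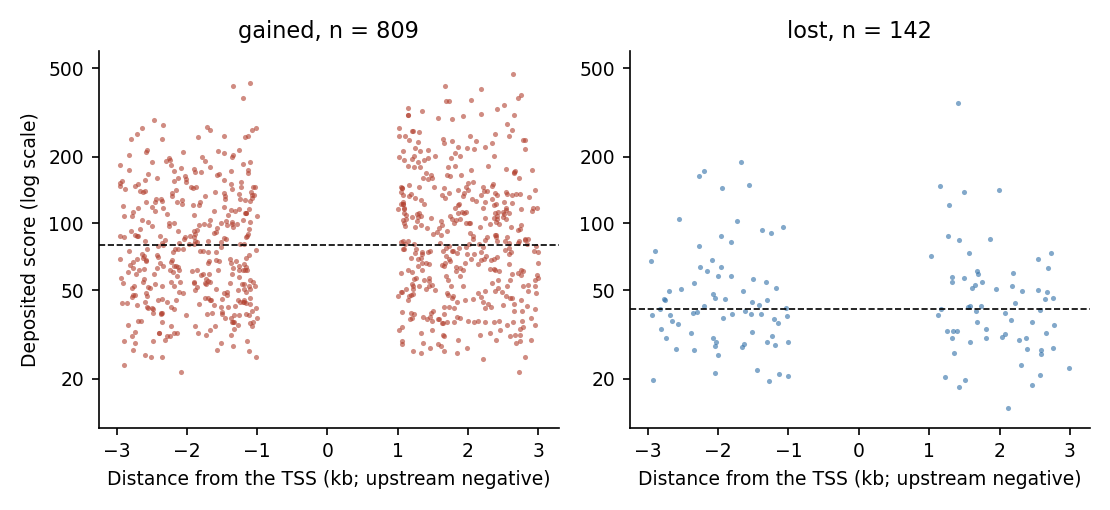
Deposited score (log scale) of each flanking peak against its distance from the nearest TSS, upstream negative, for the gained and lost lists separately; dashed lines are the medians of the flanking peaks plotted (80 and 41.2). High and low scores occur at every distance, and the scales of the panels are not compared.

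Motif matches differed between the lists for some strings, with intervals that exclude 0 for 6 of 18. A total of 18 consensus strings were searched on both strands, and a match is only a description of the letters in the peak. Each is spelled out where it is first described, except MEF2, CArG, CTCF and NRF1, which are given by name only. None of the strings contains another, though matches of different strings can overlap in a peak. At least 1 of them was present in 526 gained members (65.0%) and 75 lost members (52.8%).

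The KLF/SP string GGGNGNGGC was in 243 gained members (30.04%, 26.98 to 33.3) and 6 lost members (4.23%, 1.95 to 8.91), a difference of 25.8 points (20.2 to 29.8). It was in 2.54% of all tiles of the zone and in 10.1% of tiles weighted to the GC content of the gained members. Among members with 50 to 60% GC it was in 86 of 410 gained and 4 of 76 lost members, against 5.46% of tiles. Among those with 40 to 50% GC it was in 5 of 104 gained and 2 of 56 lost members, and the difference included 0 (-7.74 to 7.73). The share of flanking minus start-site gained peaks was -12.5 points (-16.2 to -8.66), and that of flanking minus distal gained peaks 10.1 (6.92 to 13.4). Upstream (30.2%) and downstream (29.9%) shares differed by 0.326 points (-5.96 to 6.65). Gained members with the string had a median score of 107 and a mean GC content of 62.3%. *Lhx6*, whose sequence is given above, and *Ajuba*, a LIM-domain protein gene (score 415, 78.8% GC), are examples. Singled out after the values were seen, the peak at *Synj2* held 6 matches, overlapping ones included.

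Among flanking peaks, NFY was found in gained members and in no lost member. The string CCAATCA was in 66 gained members (8.16%, 6.46 to 10.3) and in none of the 142 lost members, where 3 counts of the total would be a share of 2.11% and the Wilson limit is 2.63%. The difference of 8.16 points (5.03 to 10.3) included 0 with the 5′ end of each gene alone (8.44, -0.263 to 11.6). Its share was 1.54% in all tiles, 1.05% and 1.40% in tiles weighted to the gained and lost GC content, and 0.974% in lost distal peaks. It was more frequent at lower GC content, in 15 of 104 gained members with 40 to 50% GC (14.4%, tiles 1.66%) and in 45 of 410 with 50 to 60% (10.98%, tiles 1.33%), against 4 of 227 with 60 to 70% (1.76%, tiles 0.683%) and 1 of 62 with 70 to 80% (1.61%, tiles 0.378%). Distal gained peaks held it more often, with a difference of flanking minus distal of -5.06 points (-6.88 to -2.87). Most of these members had 1 copy, 13 had 2, and 2 had 4, the peaks at *Ryr1* and *Npnt*, which were singled out after the values were seen. In the printed *Ryr1* sequence the 4 copies begin at bases 32, 59, 97 and 131, all on the plus strand, so 27, 38 and 34 bp apart. The *Npnt* peak (*Npnt* encodes the matrix protein nephronectin) was intronic, 2677 bp downstream, with a score of 31.5.

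Heart and muscle factors gave smaller numbers. MEF2 was in 21 gained members (2.60%) and 2 lost members (1.41%), and its difference of 1.19 points had an interval that includes 0 (-2.50 to 2.87). All tiles held it at 2.95%, since the string is AT-rich, and tiles weighted to the gained GC content at 0.321%. In the class with 40 to 50% GC, 12 of 104 gained members held it (11.5%) against 1.70% of tiles and 2 of 56 lost members. The CArG box of serum response factor was in 14 gained members (1.73%, weighted tiles 0.389%) and 1 lost member. The *Junb* peak held both a CArG box, in capitals above, and the KLF/SP string.

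The GATA string AGATAAG was about as frequent in either list. It was in 46 gained (5.69%) and 11 lost members (7.75%), with weighted tiles at 1.01% and 1.57% and a difference of -2.06 points (-7.82 to 1.76). Among gained members it was the one string in 18 whose share differed between the sides with an interval that excludes 0, at 7.55% upstream and 4.00% downstream (difference 3.55, 0.331 to 6.98). The TEAD string ACATTCC was in 27 gained (3.34%) and 9 lost members (6.34%), and all tiles held it at 2.07%. For NKX2-5, searched as TCAAGTG, the members numbered 21 (2.60%) and 2 (1.41%), with tiles at 2.12%. For TBX, searched as GGTGTGA, they numbered 33 (4.08%) and 2 (1.41%), with tiles at 2.05%. Tiles weighted to gained and lost GC content held TEAD at 1.593% and 1.979%, NKX2-5 at 1.492% and 1.991% and TBX at 2.599% and 2.573%. For all 3 factors, which have known roles in the heart, the interval of the difference includes 0. For TEAD it excluded 0 under 3 of 11 other settings, all with the higher share in lost members: at or above the median score of the own list (-5.34 points), at a common score limit (-5.47) and with 1 mismatch (-8.49). The E-box of myogenic and other bHLH factors, searched as CAGCTG, was in 115 gained (14.2%) and 25 lost members (17.6%), with weighted tiles at 13.0% and 9.97%. Of the 25 lost members, 19 were upstream and 6 downstream, a side difference that was not tested.

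For 4 strings the share was higher in lost than in gained members with an interval that excludes 0. CTCF, the insulator factor, was in 7 lost members (4.93%) and 4 gained members (0.494%), a difference of -4.44 points (-9.34 to -1.80), with all tiles at 0.114%. The 7 were at *Bgn*, *Ccdc88c*, *H2-T23*, *Hpn*, *Mettl9*, *Nhsl1* and *Sdha*, named after the values were seen, and the *Hpn* peak had the highest score of all lost members. The SOX string ACAAAGG was in 8 lost (5.63%) and 9 gained members (1.11%), with all tiles at 3.06%. The FOX string TGTTTAC was in 6 (4.23%) and 3 (0.371%), with tiles at 2.13%. The RUNX string TGTGGTT was in 7 (4.93%) and 13 (1.61%), with tiles at 3.89%. Each of these 3 differences excludes 0, and each rests on 6 to 8 lost peaks. Tiles weighted to lost and gained GC content held SOX at 3.004% and 2.425%, FOX at 1.386% and 0.8903% and RUNX at 3.694% and 2.567%. The RUNX difference included 0 under 7 of 11 other settings. With the 5′ end of each gene alone CTCF (-11.8 to 0.464) and FOX also included 0, as did FOX with protein_coding transcripts alone. Among members with 50 to 60% GC, CTCF (-8.15 to 0.774) and SOX (-10.02 to 0.0292) included 0. NRF1 was in no member (3 counts of the total would be 0.371% of gained and 2.11% of lost members, and the Wilson limits are 0.473% and 2.63%). For AP-1 (TGANTCA, 5.32% of gained and 4.93% of lost members, tiles 4.32%) and ETS (CNGGAAGT, 4.33% and 2.82%, tiles 2.12%) the interval of the difference includes 0. The same holds for HRE (ACGTGC, 2.72% and 2.82%, tiles 1.64%) and CRE (TGACGTCA, in 4 gained and no lost members, tiles 0.0825%). Tiles weighted to gained and lost GC content held AP-1 at 3.036% and 3.959%, ETS at 2.633% and 2.666% and HRE at 2.967% and 2.189%.

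**Figure D5:**
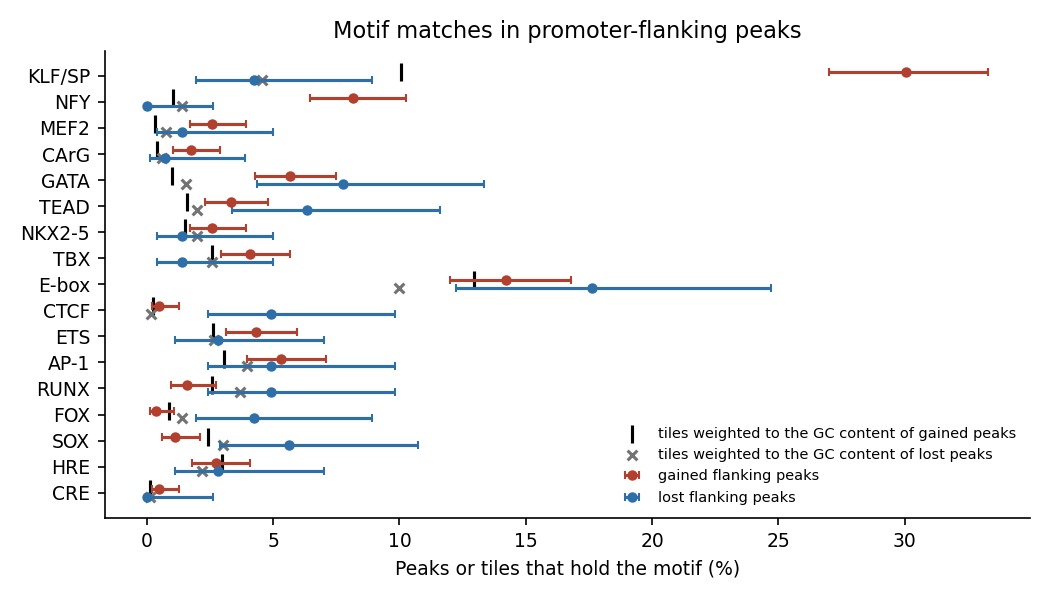
Percentage of gained (n = 809) and lost (n = 142) flanking peaks that hold each motif, with Wilson 95% intervals, beside the percentage of genome tiles of the zone weighted to the GC content of each list (bar and cross); NRF1, in no member, is left out. KLF/SP (30.04% against 4.23%) and NFY (8.16% against 0) lie higher in gained peaks, and CTCF (4.93% against 0.494%) in lost peaks.

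The members fell on many genes, mostly 1 peak each. Gained members had 757 nearest genes (3.45% of 21951 coding genes), of which 709 had 1 peak, 44 had 2 and 4 had 3. Those 4 were *Ccdc33*, *Phf21b*, *Plekha7* (a junction protein) and *Rtbdn*. At *Phf21b* the members had scores of 309.5 (1142 bp downstream, 74.2% GC), 120 (2919 bp upstream, 49.0% GC, with a GATA string) and 39 (2378 bp upstream of an internal TSS). At *Rtbdn* the 3 peaks had scores of 192, 116 and 107.5. Lost members had 141 nearest genes, and *Alas2* alone had 2 peaks.

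Genes with members in both lists numbered 8, which is 1.06% of the gained and 5.67% of the lost genes, beside 0.643% and 3.45% of all coding genes with a lost and a gained member. They were *Aspscr1*, *Bcas3*, *Fignl2*, *Grip1*, *Hpn*, *Itpr1*, *Rnase6* and *Tmc5*. In all but *Fignl2* and *Tmc5* the peaks sat at different TSSs of the gene. At *Fignl2* the gained peak (180, 77.5% GC) lay 1313 bp downstream and the lost peak (144.5, 52.3% GC) 1940 bp upstream of the same TSS. At *Bcas3*, which encodes a cytoskeletal protein of endothelial migration, the gained peak (201.5) was 2368 bp downstream of one TSS and the lost peak (38.8) 2947 bp upstream of another. That gained peak lay only 34 bp from the start of the noncoding gene *2610027K06Rik*. *Itpr1*, the inositol trisphosphate receptor, had a gained peak of 47.5 and a lost peak of 63.9, each with 46.4% GC. The lost one was 109 bp from the start of *Gm27813*. *Hpn*, a membrane serine protease gene, had a gained peak of 136.5 with 64.9% GC and the CTCF-string peak of 348.6. Only at *Tmc5* did a gained (152) and a lost member (82.2) lie within 3 kb of each other, 1142 bp apart.

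In either list some members accompanied a peak of the same list at the start of the same gene. A peak of the gained list within 1 kb of any TSS of the nearest gene was found for 167 gained members (20.6%, 18 to 23.6), while 9.23% of all coding genes had one. For lost members the corresponding values were 7 (4.93%) and 0.615%. The difference between the lists was 15.7 points (10.2 to 19.6), but the gained list is the larger one, and in both lists the members' share was above that of all coding genes. The members' share counts peaks and the other counts genes, and they were not matched for the number of TSSs per gene. The nearest gained start-site peak of the gene was within 3 kb of the member in 52 of the 167. The median offset was 9885 bp, since that peak could be at another TSS of the gene. The highest score among the gained start-site peaks of the gene exceeded that of the member in 117 of 167. Gained members with a start-site peak of the gene had 60.5% GC and those without 57.3%, a difference of 3.14 points (1.75 to 4.53).

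The 10 gained members with the highest scores were at *Lhx6* (469), *Hmga1* (430), *Ajuba* (415), *Junb* (414.5), *Unc13a* (403.5), *Gas2l1* (378.5), *Nfic* (369), *Oaz1* (367), *Adamtsl5* (359) and *Nr1d1* (355.5). *Lhx6* is a LIM-homeodomain factor of neurons, *Hmga1* an architectural chromatin protein and *Nr1d1* the clock repressor REV-ERB alpha. All 10 had a GC content over 60%, and 7 held the KLF/SP string. The 10 lost members with the highest scores were at *Hpn* (348.6), *Zfp957* (188.4), *Znhit3* (172.3), *Rpl11* (163.1), *Nisch* (148.3), *Gm8439* (147.4), *Fignl2* (144.5), *Aunip* (141.5), *Gm14226* (139.3) and *Gm20422* (121). Their GC content ran from 41.1% to 59.6%, below every one of the top gained members, and none held KLF/SP or NFY.

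Gene lists of muscle, signalling and metabolism were read against the share of all coding genes with a gained (3.45%) or lost flanking member (0.643%). The list of skeletal muscle contractile and myogenic genes had 6 of 31 genes with a gained member and none with a lost one. *Ckm* had the highest score (268.5), with the MEF2 string shown above. The others were *Ryr1* (126.5), the thin-filament gene *Tnnt3* (101, but 298 bp from the start of *Prr33*), the alpha-actinin gene *Actn3* (104), the thick-filament gene *Mybpc2* (87.5) and the nebulin gene *Neb* (32). For 5 of the 6, all but *Mybpc2*, the gained list also held a start-site peak of the gene. The *Mybpc2* peak lay upstream, in a 3′ UTR outside the gene. Of 27 cardiac sarcomere and calcium handling genes and 14 smooth muscle contractile genes none had a flanking member in either list, and at the share of all coding genes about 1 or fewer would have one. The difference between these lists was not tested. Counted from the 5′ end of each gene alone, the skeletal list had 2 genes and the cardiac sarcomere list also 2. With distances from the peak centre the cardiac sarcomere and smooth muscle lists had 1 gene each, and with protein_coding transcripts alone the skeletal list had 3 and the cardiac sarcomere list 1.

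TGF-beta and BMP pathway genes had 6 of 40 with a gained member. Among ligands these were *Bmp2* (263), *Nodal* (110) and *Inhbb* (138), the beta B subunit of inhibin and activin. The receptor was *Acvr1* (132), the signal transducer *Smad4* (39.5, with a MEF2 string) and the antagonist of activin *Fst* (109). *Inhbb* had the highest GC content of them (82.8%), in its 5′ UTR. Angiogenesis and endothelial genes had 5 of 32: the Notch ligand *Dll4* (154, but 960 bp from the start of *Gm14207*), *Notch1* (218.5), the semaphorin receptor *Plxnd1* (189.5), *Sox17* (169) and the endothelial guidance receptor *Robo4* (47). A list of 8 genes taken from the text of the study leaves out others it names, such as *Hk2*, which had a gained member (97.5). Of the 8, *Sox17* had a member, and none did with the 5′ end of each gene alone. This endothelial transcription factor gene had a gained peak in its coding exon 1398 bp downstream with 74.8% GC and a gained start-site peak. With the 5′ end of each gene alone the angiogenesis list had 1 gene, and with protein_coding transcripts alone it had 3. Notch pathway genes had 3 of 23, adding the target gene *Hes5* (118.5) to *Dll4* and *Notch1*. Wnt pathway genes had 3 of 53, all ligands, namely *Wnt7a* (130), *Wnt6* (92) and *Wnt7b* (39), and 1 under either of these TSS sets. None of the 34 matched FGF pathway genes had a member.

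Among glycolysis genes 4 of 23 had a gained member, at the hexokinase and phosphofructokinase steps. These were the hexokinase genes *Hk1* (230.5) and *Hk2* (97.5), the phosphofructokinase gene *Pfkp* (58) and *Pfkfb4* (45.5), which sets the level of its activator. The count was 1 with the 5′ end of each gene or with protein_coding transcripts alone, and 2 among peaks at or above the median score. The *Hk2* peak was in a coding exon and held the HRE string, the core of the site that hypoxia-inducible factors bind. Hypoxia response genes had 2 of 24 with a gained member, the histone demethylase gene *Kdm3a* (55) and *Ndufa4l2* (164), and 1 with a lost member, *Ndrg1* (33.5). With the 5′ end of each gene, with protein_coding transcripts alone or at or above the median score, the counts were 1 gained and 0 lost. *Tbx2* (240.5, 73.5% GC, 2351 bp upstream) was the gained and *Meis2* (41.9) the lost member among 29 cardiac transcription factor genes, and no lost one was counted under these TSS sets. Of 15 NuRD subunit genes *Chd3* had a gained member (237; 2 genes did under either of the other TSS sets), and of 23 AP-1 and C/EBP genes *Junb* did.

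Markers of other cell types were among the nearest genes too. Epicardial and mesenchymal genes had 2 of 18 (11.1%; *Col3a1*, 55.5, and *Upk3b*, 180.5) and neuronal genes 2 of 23 (8.70%; *Nrgn*, 77, and *Rbfox3*, 41), all gained, beside 3.45% of all coding genes. Among peaks at or above the median score each list had 1, and the neuronal list had 1 with the 5′ end of each gene alone and 0 with protein_coding transcripts alone. Erythroid genes had 3 of 20 with a lost member (15%, beside 0.643% of all coding genes) and none with a gained one. The count was 1 among peaks at or above the median score of the lost list, and 2 without members within 1 kb of any annotated TSS. They were *Alas2*, the erythroid enzyme of haem synthesis (23.1 and 21.8), and the embryonic globin genes *Hba-x* (57.5) and *Hbb-y* (30.8, but 885 bp from the start of *Hbb-bh0*). These genes mark cells other than cardiomyocytes, and the part that a different mix of cells had in the lists was not tested. The files hold no expression values, so the cell type could not be checked against marker levels.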

How the data were processed

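The data were 2 lists of differential ATAC-seq peaks of E10.5 hearts, 1 per genotype, each combining 4 samples. The authors lysed dissociated heart cells, treated nuclei with Tn5 and aligned reads to mm10 with BWA. Per the labels and the methods of the study, HOMER (version 4.10.3) served for peak calling and ChIP-Seeker (version 1.20.0) for annotation. A fold-change limit defined a differential peak. Read filters, the Tn5 shift and how samples were combined are not given in the sources used here, and each can change which peaks pass. The score deposited by the authors is used within a list only, since its smallest step differs between the lists.

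Peaks were assigned to the nearest TSS of all transcripts of protein-coding genes (GENCODE M21), with the side taken from the peak centre. GC content, CpG, repeats (soft-masked bases) and motif strings were read from GRCm38, the same build as mm10. Genome tiles were 974366 non-overlapping windows of 151 bp in the same zone without unsequenced bases, weighted to a list's GC content in classes of 2 points. They describe the genome, not all accessible sites. Python (version 3.11.15), pandas (2.3.3) and pysam (0.24.0) were used, and the functions were tested on simulated data. No test between genotypes was possible.

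The members, the 17 gene lists (425 distinct genes) and the motifs were chosen with earlier results of these data known. Genes were named if they held 1 of the 10 highest scores of a list, 3 or more members of a list or members of both lists, belonged to a gene list, of which 1 was taken from the text of the study, or lay next to a distance limit. Sequences were taken from these members. A set of 8 other settings changed the TSS set, the distance, the score limit, the repeat content and the peaks per gene. The motif differences of KLF/SP, NFY, CTCF, RUNX, FOX, SOX, GATA, TEAD and MEF2 were also recomputed with 1 mismatch and within GC classes. Those of the other strings were not recomputed under any setting.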

Additional observations from a re-analysis of the deposited data

How the results depend on the processing

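Of 64 recomputed comparisons, 60 kept their direction and their side of 0 or stayed within the interval of the reported share. With the 5′ end of each coding gene alone, 445 peaks were members, the gained share was 90.6%, and the share inside the nearest gene, gained minus lost, turned from -2.28 to 18.8 points. A common score limit at the median of the lost list gave a gained share of 89.1%, and assumes scores on one scale. Among peaks at or above their own list's median score, the upstream share of gained minus lost members was -12.05 points. Motif differences changed more often, in 19 of 99 recomputations. GATA turned from -2.06 to 0.962 points with 40 to 50% GC and to 1.08 with 50 to 60%, KLF/SP no longer excluded 0 with 40 to 50% GC (1.24), and RUNX lost its call in 7 of 11. FOX fell to -0.885 points with transcripts of type protein_coding alone. Gene list counts moved by over 1.5 times in 31 of 272 recomputations. No paired analysis was possible because the lists hold no value per sample, and for the same reason no replicate could be left out. The files give no depth or list of undetected sites, so the peaks missed for lack of reads were not assessed.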
